A study of Mus musculus with 12 samples.

Results

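The genes described here encode membrane-associated antiviral effectors that interferons induce. They are the interferon-induced transmembrane genes Ifitm1, Ifitm2, Ifitm3 and Ifitm6, Bst2, which encodes tetherin, and Rsad2, which encodes viperin. These 6 genes were taken by symbol from a table of 50643 genes and were selected on their levels in the 4 groups. Their own values are therefore given as a description and without p-values, and nothing is read from whether they were called. Of the 50643 genes, 16694 had enough counts to be tested, and all 6 members were among them. The lowest count of any member in any library was 72, for Ifitm6 in unchallenged wild-type cells. RNA was sequenced from NK cells obtained by negative isolation from spleens of C57BL/6 mice. There were 3 libraries in each of 4 groups, namely Mirc11-/- cells challenged with Listeria, wild-type cells challenged with Listeria, unchallenged Mirc11-/- cells and unchallenged wild-type cells. Mirc11 is the gene cluster of the microRNAs called miR-23a, miR-27a and miR-24. Listeria is an intracellular bacterium widely used to provoke innate immune responses in mice. No source used here gives the age or sex of the mice, the dose of Listeria, the time after challenge, the make of the deletion or whether spleens were pooled. The submitters call the 3 libraries of a group biological replicates without saying whether each came from its own mouse.

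IFITM proteins sit in the plasma membrane and in endosomes and make the fusion of virus and host membranes harder, which keeps enveloped viruses from entering. Tetherin spans the membrane and carries a lipid anchor at its other end, so that it holds budding virus particles to the cell that made them. Viperin is an enzyme of the endoplasmic reticulum and lipid droplets that converts a cytidine nucleotide into a form that stops viral RNA synthesis. Transcription of these genes is classically driven by interferons, whose receptors signal through JAK kinases to STAT and IRF factors that bind interferon-response elements.

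Library totals ran from 17624530 to 23665679 counts, and levels are given as CPM, a gene's counts scaled to a common library total. Log2 fold changes and standard errors come from 1 edgeR quasi-likelihood fit of all 12 libraries, scaled by TMM. A gene was called at a Benjamini-Hochberg adjusted p below 0.05 over the 16694 genes. The hairpins Mir23a, Mir27a and Mir24-2 had 0 counts in all 12 libraries, wild-type included, so they check no genotype label. Gm26532, a transcript next to the deleted cluster, stood at 0.113 to 0.498 CPM in unchallenged Mirc11-/- cells, against 2.35 to 4.88 CPM in unchallenged wild-type cells. In challenged Mirc11-/- cells it stood at 0.887, 0.984 and 2.70 CPM, against 2.34 to 4.27 CPM in challenged wild-type cells, so the library labelled Mirc11-/- challenged replicate 3 lay within the wild-type range. Sex was unequal between the genotypes. Xist, transcribed from the inactive X chromosome of females, averaged 749 CPM in challenged Mirc11-/- cells, 1327 CPM in challenged wild-type cells, 0.728 CPM in unchallenged Mirc11-/- cells and 1653 CPM in unchallenged wild-type cells. The Y-linked Ddx3y averaged 56.5, 0.0589, 108 and 11.6 CPM in the same groups, with 1 unchallenged wild-type library, replicate 4, at 34.6 CPM. Within Mirc11-/- cells, Xist ran from 526 to 1027 CPM and Ddx3y from 44.1 to 80.5 CPM in the challenged libraries, against 0.362 to 1.08 CPM for Xist and 83.6 to 135 CPM for Ddx3y in the unchallenged ones. Sex therefore cannot be told apart from genotype, from challenge in Mirc11-/- cells or from the difference of the challenge responses. Each of the 3 challenged Mirc11-/- libraries held both Xist and Ddx3y, as did unchallenged wild-type replicate 4 (Xist at 1198 CPM). These libraries thus held RNA of both sexes, which 1 mouse alone would not give. No source used here says how that came about.

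Ifitm3, the family member best known for blocking influenza virus in endosomes, had the largest challenge difference of the 6 genes in both genotypes. It stood at 125, 114 and 83.5 CPM in challenged Mirc11-/- cells, against 294, 324 and 338 CPM in challenged wild-type cells. Without challenge it stood at 30.1, 30.4 and 30.8 CPM in Mirc11-/- cells, against 22.7, 21.2 and 19.2 CPM in wild-type cells. The 4 groups did not overlap, with challenged wild-type cells highest, challenged Mirc11-/- cells second and unchallenged wild-type cells lowest. The challenge difference was 1.81 ± 0.12 on the log2 scale (SE) in Mirc11-/- cells, against 4.03 ± 0.13 in wild-type cells. Mirc11-/- minus wild-type was -1.67 ± 0.11 after challenge and 0.55 ± 0.12 without it, so the sign of the genotype difference turned round between the treatments. These are bulk libraries, in which fewer cells of a type and less RNA per cell cannot be told apart. The gene lies on the minus strand at chr7:141009586-141010770 (GRCm38). Its promoter window, from 250 bases before the RefSeq start to 50 after it (GRCm38.p6, chr7:141010695-141010994, minus strand), is printed because it holds a pair of matches to the interferon-response-like motif GAAANNGAA, shown in capitals.
Ifitm3 promoter: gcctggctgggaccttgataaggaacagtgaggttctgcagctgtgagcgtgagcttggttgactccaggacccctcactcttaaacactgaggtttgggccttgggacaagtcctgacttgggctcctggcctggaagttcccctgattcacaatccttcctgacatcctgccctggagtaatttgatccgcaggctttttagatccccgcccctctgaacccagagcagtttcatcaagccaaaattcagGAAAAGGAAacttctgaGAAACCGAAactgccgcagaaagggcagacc
The matches begin 3 and 20 bases after the start. A match to the STAT-like motif TTCNNNGAA begins 14 bases after it and overlaps the second.

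Ifitm2, whose product sits mainly in late endosomes and lysosomes, showed the smallest challenge difference in wild-type cells of the 6 genes. Challenged Mirc11-/- cells had 53.0, 48.5 and 50.1 CPM, against 111, 100 and 114 CPM in challenged wild-type cells. Unchallenged Mirc11-/- cells had 28, 29.5 and 31.4 CPM, against 24.5, 25.1 and 21.4 CPM in unchallenged wild-type cells. The genotypes were far apart after challenge and only narrowly apart without it, where the lowest Mirc11-/- library lay just above the highest wild-type one. The challenge difference was 0.76 ± 0.08 in Mirc11-/- cells, against 2.30 ± 0.08 in wild-type cells (log2, SE). Mirc11-/- minus wild-type was -1.19 ± 0.08 after challenge and 0.34 ± 0.08 without it, the smallest unchallenged difference of the 6. Ifitm2 lies on the minus strand at chr7:140954837-140955987. Of the 50-base words in its transcript, 48.5% also occur in some other gene, and 36.1% in the overlapping gene Gm45717. Gm45717 reached at most 0.148 CPM on average in any group, a level that itself depends on how shared reads were divided.

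Ifitm1, whose product sits mainly at the cell surface, had the largest gap between the genotypes' challenge responses. It stood at 63.9, 57.1 and 47.1 CPM in challenged Mirc11-/- cells, against 137, 143 and 158 CPM in challenged wild-type cells. In unchallenged cells it stood at 42.4, 39.1 and 42.1 CPM in Mirc11-/- cells, against 16.2, 17.2 and 16.6 CPM in wild-type cells. The unchallenged Mirc11-/- libraries thus lay nearer to the challenged Mirc11-/- libraries than to the unchallenged wild-type ones. The challenge difference was 0.43 ± 0.09 in Mirc11-/- cells, against 3.24 ± 0.10 in wild-type cells (log2, SE), and the difference of these responses was -2.80 ± 0.14. In CPM, the gain with challenge in Mirc11-/- cells was 11.5% of the gain in wild-type cells, the lowest share of the 6 genes. Mirc11-/- minus wild-type was -1.48 ± 0.09 after challenge and 1.33 ± 0.10 without it. Ifitm1 is the only one of the 4 family members here on the plus strand (chr7:140967221-140969825). Its window around the RefSeq start (GRCm38.p6, chr7:140967826-140968125, plus strand) is printed for contrast with that of Ifitm3, because it holds no match to either motif and so has no capitals.
Ifitm1 promoter: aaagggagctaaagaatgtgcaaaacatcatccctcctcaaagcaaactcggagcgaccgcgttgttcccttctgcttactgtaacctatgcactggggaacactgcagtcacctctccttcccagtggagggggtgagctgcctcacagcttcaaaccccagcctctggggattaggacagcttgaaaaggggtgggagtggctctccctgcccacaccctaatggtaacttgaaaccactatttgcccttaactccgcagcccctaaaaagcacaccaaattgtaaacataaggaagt
That says only that these letters are not in this window. The window lies inside the annotated gene and does not reach its first base at 140967221, whereas the Ifitm3 window spans the annotated start of Ifitm3. The contrast is therefore between unlike windows.

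Ifitm6, a family member of mice in the same cluster (chr7:141015699-141017924, minus strand), had the lowest counts of the 6 genes. Challenged Mirc11-/- cells had 28.9, 27.4 and 20 CPM, against 48.0, 51.9 and 42.9 CPM in challenged wild-type cells. Unchallenged Mirc11-/- cells had 11, 9.68 and 9.21 CPM, against 3.93, 4.09 and 3.86 CPM in unchallenged wild-type cells. All 4 groups were again separate, in the same order as for Ifitm3. The challenge difference was 1.34 ± 0.13 in Mirc11-/- cells, against 3.69 ± 0.14 in wild-type cells (log2, SE). Mirc11-/- minus wild-type was -1.0 ± 0.12 after challenge and 1.34 ± 0.15 without it. Few 50-base words were shared among the family, 3.30% of those in Ifitm2 with Ifitm3, 1.42% of those in Ifitm1 with Ifitm3 and 0% of those in Ifitm6 with any other gene, but how reads from such stretches were divided between paralogs is uncertain.

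**Figure D1:**
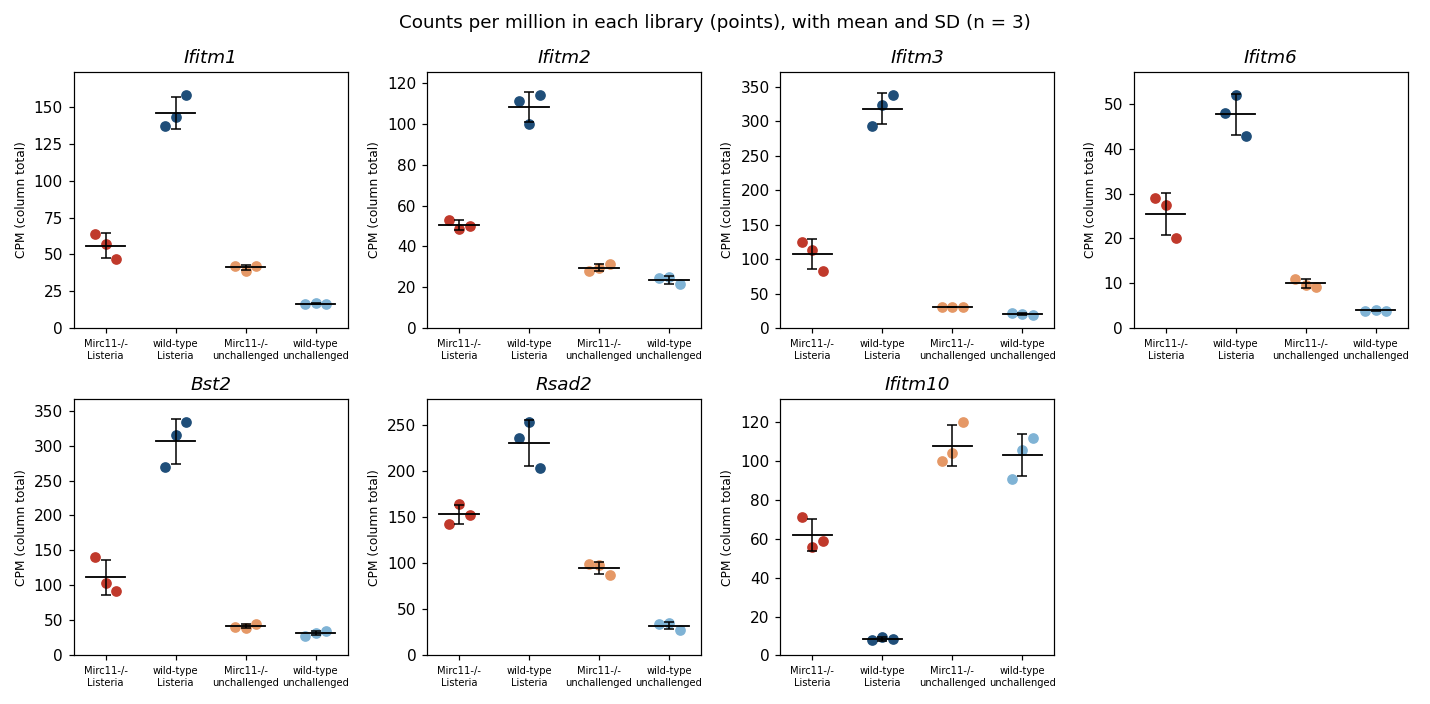
Level of each gene in CPM (linear axis from 0) in the 12 libraries, with points for libraries, a line for the group mean and bars for the SD (n = 3). For the 6 members challenged wild-type libraries are highest and unchallenged wild-type libraries lowest, whereas Ifitm10, a family member outside the set, is lowest in challenged wild-type cells (7.75 to 9.73 CPM).

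Bst2, the tetherin gene, was close to Ifitm3 in its pattern. It stood at 140, 104 and 92.0 CPM in challenged Mirc11-/- cells, against 270, 315 and 333 CPM in challenged wild-type cells. Unchallenged Mirc11-/- cells had 40.3, 39.8 and 45.5 CPM, against 28.5, 32.7 and 34.8 CPM in unchallenged wild-type cells. The groups did not overlap, but the unchallenged genotypes were only narrowly apart. The challenge difference was 1.41 ± 0.14 in Mirc11-/- cells, against 3.36 ± 0.15 in wild-type cells (log2, SE). Mirc11-/- minus wild-type was -1.54 ± 0.14 after challenge and 0.40 ± 0.15 without it, and the unchallenged difference was the only one of a member that was not called. In mice tetherin is also a surface marker of plasmacytoid dendritic cells and plasma cells. The summed level of 8 plasmacytoid dendritic cell markers was 332 to 356 CPM in challenged Mirc11-/- cells, 355 to 366 CPM in challenged wild-type cells, 317 to 328 CPM in unchallenged Mirc11-/- cells and 313 to 325 CPM in unchallenged wild-type cells, and none of the 8 was at 0 in any group. That sum rests largely on Spib, Ly6d and Tcf4, which averaged 133, 114 and 75.3 CPM in challenged wild-type cells. With challenge 2 of the 8 rose and 2 fell in Mirc11-/- cells, and 3 rose and 4 fell in wild-type cells. After challenge 3 of the 8 were called higher and 3 lower in Mirc11-/- than in wild-type cells. Siglech stood at 32.0 ± 2.61 CPM in challenged Mirc11-/- and 1.34 ± 0.236 CPM in challenged wild-type cells (SD, n = 3 each). Klk1 stood at 7.07 ± 0.747 CPM in challenged Mirc11-/- and 21.1 ± 2.09 CPM in challenged wild-type cells. In unchallenged wild-type cells Siglech averaged 20.3 ± 2.64 CPM and Klk1 10.1 ± 1.13 CPM. Plasma cell markers (8 genes) summed to 515 to 600 CPM in challenged Mirc11-/- cells, 509 to 584 CPM in challenged wild-type cells, 388 to 425 CPM in unchallenged Mirc11-/- cells and 401 to 469 CPM in unchallenged wild-type cells. With challenge 7 of those 8 rose and 1 fell in Mirc11-/- cells, and 4 rose and 2 fell in wild-type cells. The part of these cells in the level of Bst2 was not tested. The Bst2 window (GRCm38.p6, chr8:71537423-71537722, minus strand) is printed because its pair of GAAANNGAA matches lie together, again in capitals.
Bst2 promoter: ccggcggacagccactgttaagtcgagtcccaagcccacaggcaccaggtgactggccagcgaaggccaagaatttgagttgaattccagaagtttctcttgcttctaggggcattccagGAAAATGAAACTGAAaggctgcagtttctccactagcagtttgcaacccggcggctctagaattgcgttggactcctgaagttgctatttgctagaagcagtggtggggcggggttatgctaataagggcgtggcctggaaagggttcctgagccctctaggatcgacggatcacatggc
The matches begin 130 and 124 bases before the start and overlap each other, and a TTCNNNGAA match at 136 bases before the start overlaps the first.

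Rsad2, the viperin gene (chr12:26442746-26456452, minus strand), had the highest unchallenged level in Mirc11-/- cells relative to wild-type cells. It stood at 143, 164 and 153 CPM in challenged Mirc11-/- cells, against 236, 253 and 204 CPM in challenged wild-type cells. Unchallenged Mirc11-/- cells had 99.0, 97.8 and 86.9 CPM, against 34.1, 35.3 and 27.7 CPM in unchallenged wild-type cells. The ratio of the means, Mirc11-/- over wild-type, was 2.92 without challenge and 0.664 after it. The challenge difference was 0.69 ± 0.09 in Mirc11-/- cells, against 2.94 ± 0.10 in wild-type cells (log2, SE), and Mirc11-/- minus wild-type was -0.69 ± 0.09 after challenge, the smallest of the 6, and 1.57 ± 0.10 without it. Cmpk2, a mitochondrial nucleotide kinase gene that lies 12752 bases from Rsad2, is the neighbour usually induced together with it. Its level averaged 22.3 ± 1.45 CPM in unchallenged Mirc11-/- cells and 21.0 ± 1.12 CPM in unchallenged wild-type cells (SD, n = 3 each), a log2 difference of 0.10 with an edgeR adjusted p of 0.555. After challenge Cmpk2 averaged 58.9 ± 6.23 CPM in Mirc11-/- cells and 114 ± 3.50 CPM in wild-type cells, and it rose in both genotypes, by 1.39 ± 0.08 in Mirc11-/- cells (adjusted p = 7.47e-09) and 2.55 ± 0.08 in wild-type cells (adjusted p = 1.6e-12). The Rsad2 window (GRCm38.p6, chr12:26456403-26456702, minus strand) is printed because its 1 match to GAAANNGAA, in capitals, is on the other strand and so appears as the reverse complement.
Rsad2 promoter: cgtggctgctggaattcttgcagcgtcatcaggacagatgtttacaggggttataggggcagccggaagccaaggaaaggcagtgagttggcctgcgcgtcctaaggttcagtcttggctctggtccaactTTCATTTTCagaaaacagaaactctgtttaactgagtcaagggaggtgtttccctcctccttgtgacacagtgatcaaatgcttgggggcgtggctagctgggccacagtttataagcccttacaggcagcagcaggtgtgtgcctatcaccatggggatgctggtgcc
The match begins 119 bases before the start. Over the 6 members, whose windows were all found in the RefSeq table, 4 held GAAANNGAA or its reverse (Ifitm2, Ifitm3, Bst2 and Rsad2), against 8.56% of the 32851 windows in the table. Those 4 windows span the annotated start of their gene. The windows of Ifitm1 and Ifitm6 lie inside the annotated genes and do not reach that start, so the 6 windows are not alike. TTCNNNGAA was in the windows of Ifitm3, Ifitm6 and Bst2 and in 8.30% of all windows, and the NF-kB-like motif GGGANTTCC or its reverse was in none of the 6 and in 1.68% of all windows. A match is a description of letters and not evidence of binding.

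Read together, the 6 genes were higher after challenge in both genotypes, lower in Mirc11-/- than in wild-type cells after challenge, and higher in Mirc11-/- than in wild-type cells without it. With challenge in Mirc11-/- cells 6 of 6 were called higher, where 15.6% of all tested genes were called higher and 11.5% lower, and all 6 had every challenged library above every unchallenged one, as did 20.9% of tested genes. With challenge in wild-type cells 6 of 6 were called higher (background 32.4% higher and 30.9% lower) and 6 of 6 had separate libraries (background 30.1%). In the challenged genotype comparison 6 of 6 were called lower (background 25.9% lower and 22.7% higher) with every Mirc11-/- library below every wild-type one (background 22.3%). Without challenge 5 of 6 were called higher (background 6.64% higher and 5.07% lower) and 6 of 6 had every Mirc11-/- library above every wild-type one (background 14.4%). The challenge responses differed by -2.80 to -1.54 on the log2 scale, with 6 of 6 called lower (background 18.5% lower and 16.7% higher). Since the genes were chosen on these levels, nothing is read from those counts. The median log2 fold change over the 6 was 1.05 for challenge in Mirc11-/- cells, 3.30 for challenge in wild-type cells, -1.33 for genotype after challenge, 0.94 for genotype without it and -2.24 for the difference of the responses, where the medians over all tested genes were -0.01, -0.01, 0, -0.01 and 0. Leaving out the library labelled Mirc11-/- challenged replicate 3 and unchallenged wild-type replicate 4 gave -2.70 to -1.47 for the difference of the responses and 0.28 to 1.47 for the unchallenged genotype difference. In that unchallenged comparison 4 of 6 were then called, Ifitm2 and Bst2 not among them. Over all tested genes 1665 were then called, against 1955 in the fit of all 12 libraries. With 1 library left out, Ifitm2 lost its unchallenged call without replicate 4 of either genotype, and Bst2 gained one without Mirc11-/- challenged replicate 1.

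**Figure D2:**
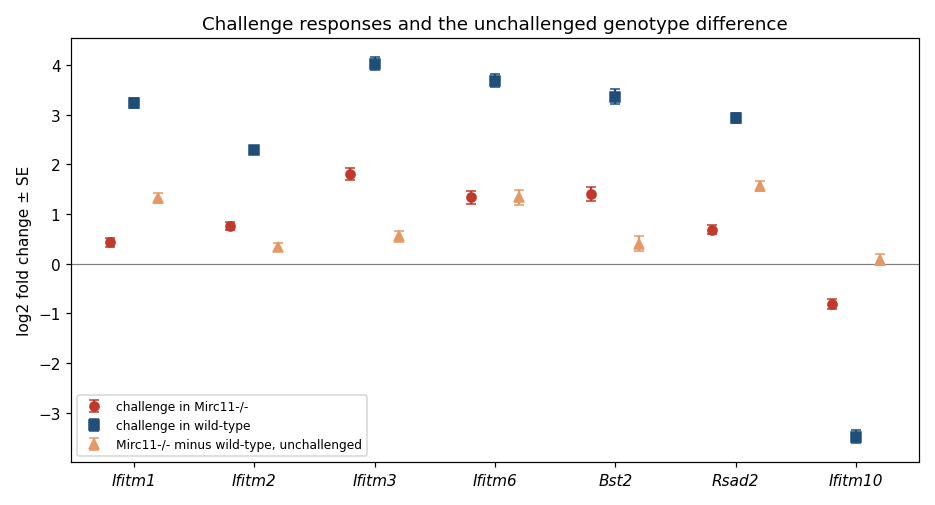
Log2 fold change with its SE (bars) from the fit of all 12 libraries, for challenge in Mirc11-/- cells (circles), challenge in wild-type cells (squares) and Mirc11-/- minus wild-type without challenge (triangles). For each of the 6 members the wild-type challenge value (2.30 to 4.03) lies above the Mirc11-/- one (0.43 to 1.81), and Ifitm1, Ifitm6 and Rsad2 have the 3 highest unchallenged genotype values (1.33 to 1.57).

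The 6 genes divided by their unchallenged genotype difference. Ifitm1, Ifitm6 and Rsad2 had Mirc11-/- means 2.48, 2.52 and 2.92 times those of wild-type, and Ifitm2, Ifitm3 and Bst2 1.25, 1.45 and 1.31 times. This grouping was seen in the values and was not tested. Over the 12 libraries the log2 levels of Ifitm3 and Bst2 had a Pearson r of 0.994 and those of Bst2 and Rsad2 0.880, the highest and lowest among the 15 pairs of members. These are descriptions over libraries that fall into 4 separate groups.

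Levels can be set against each other only per length, here CPM per kilobase of the union of a gene's exons. In challenged Mirc11-/- cells the order was Ifitm3 (158 ± 31.3), Bst2 (124 ± 27.8), Ifitm2 (77.1 ± 3.49), Ifitm1 (51.2 ± 7.72), Rsad2 (35.4 ± 2.45) and Ifitm6 (28.1 ± 5.27), in CPM per kilobase with the SD of 3 libraries. The ranges of Ifitm3 and Bst2 overlapped, and the other neighbours in that order did not. In challenged wild-type cells the order was the same, with Ifitm3 at 470 ± 33.3 and Bst2 at 339 ± 36.0, and Rsad2 (53.2 ± 5.67) and Ifitm6 (52.6 ± 4.93) did not differ beyond their spread. In unchallenged Mirc11-/- cells Bst2, Ifitm2 and Ifitm3 lay at 46.3 ± 3.47, 45.2 ± 2.61 and 44.9 ± 0.498 and did not differ beyond their spread. In unchallenged wild-type cells the ranges of the same 3 genes overlapped, between 28.3 and 38.5. With the longest transcript as the length, the order was the same in challenged Mirc11-/- cells. In challenged wild-type cells Ifitm1 then ranked above Ifitm2 and Ifitm6 above Rsad2, in unchallenged Mirc11-/- cells Ifitm1 ranked above Ifitm2 and Ifitm3, and in unchallenged wild-type cells Bst2 ranked above Ifitm2. By the exon union Ifitm6 was the lowest in all 4 groups, at 4.38 ± 0.132 in unchallenged wild-type cells.

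Other family members were tested or counted outside the set. Ifitm10, a family member with little known antiviral role that lies farther along the same chromosome (chr7:142325837-142373753), fell with challenge. It stood at 71.3, 56.1 and 58.8 CPM in challenged Mirc11-/- cells, against 7.75, 9.73 and 8.28 CPM in challenged wild-type cells. Without challenge it stood at 100, 104 and 120 CPM in Mirc11-/- cells, against 91.1, 106 and 112 CPM in wild-type cells, where the genotypes overlapped. Challenge changed Ifitm10 by -0.81 ± 0.11 in Mirc11-/- cells (edgeR adjusted p = 6.89e-05) and by -3.48 ± 0.13 in wild-type cells (adjusted p = 7.3e-12), and the responses differed by 2.68 ± 0.17 (adjusted p = 2.67e-08). Ifitm5, a bone gene, and Ifitm7 were in the table but had at most 16 counts in any group of 3 libraries and were not tested.

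Markers of other cells also differed between the groups, not all in the direction of the members. Neutrophil markers (11 genes) summed to 831 to 1271 CPM in challenged Mirc11-/- cells, 1612 to 1907 CPM in challenged wild-type cells, 473 to 488 CPM in unchallenged Mirc11-/- cells and 61.7 to 64.3 CPM in unchallenged wild-type cells. The sum ordered the groups as the 6 members did, but single markers did not all do so. Without challenge 10 of the 11 were called higher in Mirc11-/- cells, with a median log2 difference of 3.01, whereas after challenge 4 were called higher and 7 lower. With challenge 8 rose and 3 fell in Mirc11-/- cells, and 11 rose in wild-type cells. The sum rests largely on S100a8 and S100a9, while Ltf averaged 48.1 ± 12.9 CPM in challenged Mirc11-/- cells, 30.2 ± 3.11 CPM in challenged wild-type cells, 75.2 ± 3.56 CPM in unchallenged Mirc11-/- cells and 3.10 ± 0.909 CPM in unchallenged wild-type cells. Monocyte and macrophage markers (13 genes) summed to 1333 to 1657, 1767 to 2005, 1234 to 1279 and 1106 to 1143 CPM in the same 4 groups. This sum too ordered the groups as the 6 members did. Of the 13, 7 were called higher in unchallenged Mirc11-/- cells and 0 lower, and after challenge 2 were called higher and 9 lower. Basophil and mast cell markers (6 genes) summed to 182 to 207, 164 to 177, 222 to 231 and 75.2 to 82.4 CPM in the same 4 groups. After challenge that sum was higher in Mirc11-/- cells, with 3 of the 6 markers called higher and 2 lower. T cell markers (8 genes) summed to 336 to 385, 226 to 234, 240 to 265 and 343 to 383 CPM, lowest in challenged wild-type cells. B cell markers (7 genes) summed to 1342 to 1373, 1453 to 1532, 961 to 983 and 1276 to 1435 CPM, lowest in unchallenged Mirc11-/- cells. NK markers (9 genes, among them Ncr1 and Klrb1c) were present in every library, at 4734 to 5416 CPM in challenged Mirc11-/- cells, 3514 to 3594 CPM in challenged wild-type cells, 6609 to 6857 CPM in unchallenged Mirc11-/- cells and 6320 to 7240 CPM in unchallenged wild-type cells. Between the unchallenged genotypes 0 of the 9 were called by edgeR, with 1 at an unadjusted p below 0.05 and 1 called by DESeq2. With challenge in wild-type cells 7 of the 9 were called lower and 1 higher. Prf1 averaged 904 ± 13.1 CPM in challenged wild-type cells and 641 ± 77.6 CPM in unchallenged wild-type cells. Erythroid markers (8 genes, mostly haemoglobin) summed to 19734 to 24732, 1721 to 2292, 36289 to 40840 and 11531 to 13489 CPM in the 4 groups. No marker of these lists was at 0 in any group. The part of these cells in the levels of the 6 genes was not tested.

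**Figure D3:**
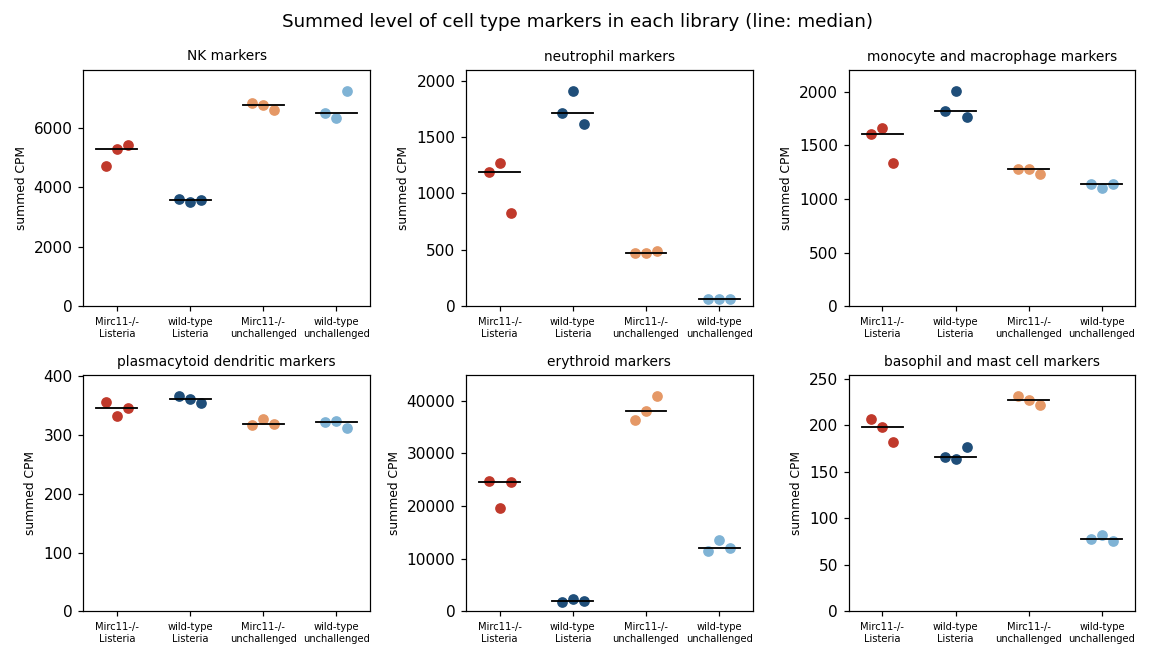
Summed CPM of marker genes of 6 cell types in each library (points, linear axes from 0), with a line at the group median. The neutrophil sum and the monocyte and macrophage sum both order the 4 groups as the 6 members do. The neutrophil sum has 1612 to 1907 CPM in challenged wild-type cells and 61.7 to 64.3 CPM in unchallenged wild-type cells. After challenge 4 of its 11 markers were called higher in Mirc11-/- than in wild-type cells. The NK and erythroid sums are lowest in challenged wild-type cells.

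Upstream of these genes, 21 of the 27 interferon ligands, receptors and signalling genes had enough counts to be tested. With challenge 11 rose and 5 fell in Mirc11-/- cells, and 14 rose and 5 fell in wild-type cells. After challenge 2 were higher and 15 lower in Mirc11-/- than in wild-type cells, with a median log2 difference of -0.73. Without challenge 0 were higher and 1 lower, with a median of -0.02. Of the ligands, Ifng, the interferon that NK cells make, rose with challenge by 0.62 ± 0.13 in Mirc11-/- cells (adjusted p = 0.00357) and by 1.63 ± 0.13 in wild-type cells (adjusted p = 1.63e-07). Ifnb1, which encodes the type I interferon beta, had 8 counts over the 3 challenged Mirc11-/- libraries, 17 over the 3 challenged wild-type libraries and 0 in both unchallenged groups. Usp18, which damps signalling at the type I receptor, averaged 76.9 ± 11.8 CPM in challenged Mirc11-/- cells and 273 ± 18.2 CPM in challenged wild-type cells (SD, n = 3 each). Its challenge responses differed by -1.83 ± 0.15 (edgeR adjusted p = 3.19e-07), while the unchallenged difference was -0.10 ± 0.11 (adjusted p = 0.714). Stat2, a factor that carries the type I receptor signal to the nucleus, had responses that differed by -1.24 ± 0.09 (adjusted p = 6.78e-08). Irf8, a factor of myeloid and NK lineages, rose in wild-type cells by 1.41 ± 0.08 (adjusted p = 8.21e-10) and had a value of 0.19 ± 0.08 in Mirc11-/- cells (adjusted p = 0.103).

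Among 18 other tested genes of a list of effectors, most of which act on membranes or lipids, 9 rose and 3 fell with challenge in Mirc11-/- cells, and 11 rose and 4 fell in wild-type cells. After challenge 4 were higher and 11 lower in Mirc11-/- than in wild-type cells, with a median log2 difference of -0.67. Gbp2 and Gbp5, interferon-induced guanylate-binding proteins, averaged 234 ± 30.7 and 144 ± 18.5 CPM in challenged Mirc11-/- cells, against 686 ± 38.1 and 419 ± 20.3 CPM in challenged wild-type cells. Their responses differed by -1.45 ± 0.11 (edgeR adjusted p = 2.28e-07) and -1.52 ± 0.12 (adjusted p = 1.78e-07). Slfn5, a schlafen gene in this list whose product is nuclear, had responses that differed by -1.09 ± 0.11 (adjusted p = 2.74e-06), and in unchallenged cells it was lower in Mirc11-/- cells by a log2 difference of -0.36 ± 0.08 (adjusted p = 0.00787). The largest differences of the responses in this list were those of the apolipoprotein L genes Apol9a (-2.88 ± 1.06, adjusted p = 0.0461) and Apol9b (-2.59 ± 0.53, adjusted p = 0.00149) and of Ch25h, a cholesterol hydroxylase (-2.56 ± 0.94, adjusted p = 0.0454). These differences rest on very low unchallenged counts. Summed over a group, unchallenged Mirc11-/- and wild-type cells had 6 and 4 counts of Apol9a. They had 21 and 14 counts of Apol9b, and 5 and 4 of Ch25h. With 1 library left out in turn, Apol9a lost its call in 9 of 12 fits and Ch25h in 8, and Apol9b in 0. Without challenge 2 of the 18 were higher in Mirc11-/- cells, the ubiquitin ligase genes March8 (0.71 ± 0.08, adjusted p = 2.17e-05) and March2 (0.26 ± 0.08, adjusted p = 0.0367, lost in 6 of 12 fits with 1 library left out), and 1 was lower.

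The 29 cytosolic and nuclear restriction factors that were tested mostly rose. With challenge 21 rose and 1 fell in Mirc11-/- cells, and 25 rose and 3 fell in wild-type cells, with median log2 changes of 0.39 in Mirc11-/- cells and 1.43 in wild-type cells. After challenge 3 were higher and 25 lower in Mirc11-/- than in wild-type cells. Zbp1, a sensor of nucleic acids in an unusual helical form, averaged 208 ± 19.6 CPM in challenged Mirc11-/- cells and 538 ± 26.8 CPM in challenged wild-type cells (SD, n = 3 each), and its responses differed by -1.39 ± 0.11 (edgeR adjusted p = 1.73e-07). Those of Parp12, an ADP-ribosyltransferase, and of Tdrd7, a tudor-domain protein, differed by -1.02 ± 0.15 (adjusted p = 0.000114) and -1.14 ± 0.09 (adjusted p = 2.46e-07). In unchallenged cells 1 of the 29 was higher in Mirc11-/- cells and 1 lower, with a median log2 difference of -0.04 over the list. The gene that was higher was Isg20, which encodes an RNA exonuclease. It averaged 62.6 ± 3.47 CPM in unchallenged Mirc11-/- cells and 23.0 ± 1.47 CPM in unchallenged wild-type cells, a log2 difference of 1.46 ± 0.09 (adjusted p = 3.97e-08). Isg20 then rose with challenge by 2.28 ± 0.09 in wild-type cells (adjusted p = 9.21e-12), whereas its value in Mirc11-/- cells was 0.20 ± 0.08 (adjusted p = 0.0908), and 0.26 and called without Mirc11-/- challenged replicate 2. The gene that was lower was Parp12, at -0.58 ± 0.12 (adjusted p = 0.00422).

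**Figure D4:**
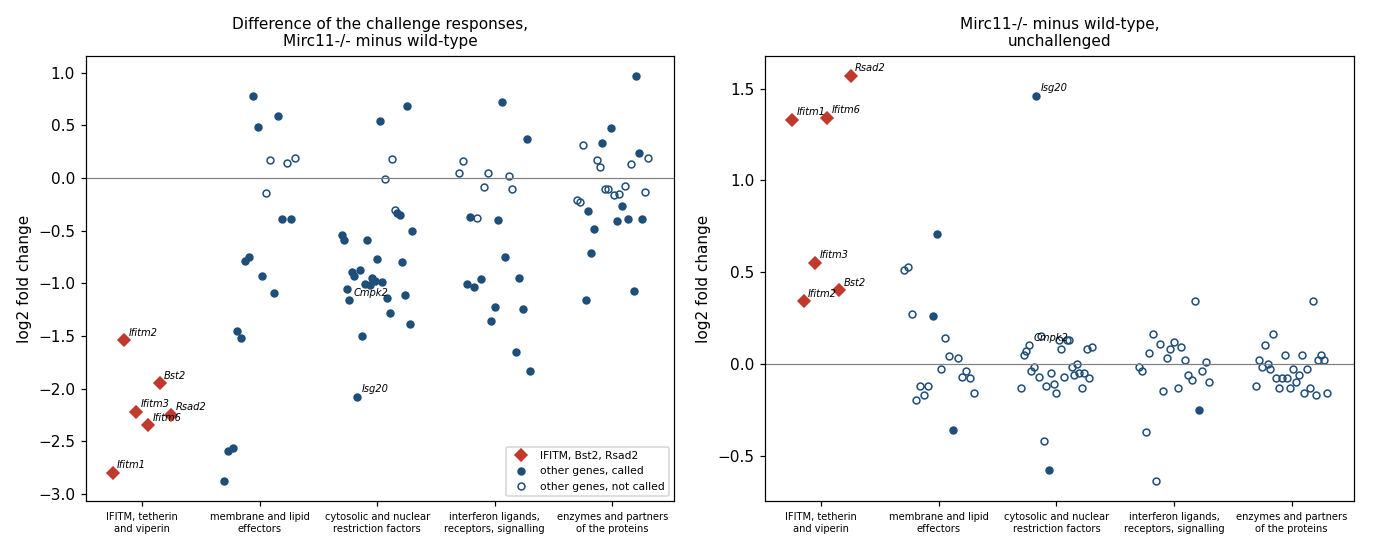
Log2 fold changes of the 6 members (diamonds) and of the genes of 4 lists (circles, filled where called), for the difference of the challenge responses (left) and for Mirc11-/- minus wild-type without challenge (right). On the right, the medians of the 4 lists lie between -0.04 and -0.02, Isg20 stands at 1.46 and the members run from 0.34 to 1.57. The members were chosen on these levels, so nothing is read from their distance to the lists.

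Of 26 genes whose products act on or with the member proteins, 5 rose and 1 fell with challenge in Mirc11-/- cells, and 15 rose and 5 fell in wild-type cells. The count of 6 in Mirc11-/- cells ran from 2 to 8 with 1 library left out. Without challenge 0 of the 26 were called between the genotypes by edgeR or by DESeq2, with 1 at an unadjusted p below 0.05. Cmpk2, described above, is also counted in this list. Vcp, a segregase that in human cells takes part in the turnover of IFITM3, averaged 355 ± 6.90 CPM in challenged Mirc11-/- cells and 443 ± 19.6 CPM in challenged wild-type cells (SD, n = 3 each), and its responses differed by -0.39 ± 0.08 (edgeR adjusted p = 0.00109). Fam96b belongs to the machinery that, in human cells, loads the iron-sulfur cluster onto viperin, and its responses differed by -0.71 ± 0.13 (adjusted p = 0.0005). Stt3a, a subunit of the enzyme that attaches sugar chains to proteins such as tetherin, had responses that differed by -0.41 ± 0.08 (adjusted p = 0.000689).

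Around the members, 23 other annotated genes lay within 50 kb, and 12 of them were tested. With challenge 2 rose and 2 fell in Mirc11-/- cells, and 6 rose and 2 fell in wild-type cells, with median log2 changes of 0.01 in Mirc11-/- cells and 0.24 in wild-type cells. After challenge 2 were higher and 4 lower in Mirc11-/- cells. Mvb12a, a gene of the endosomal sorting machinery 5466 bases from Bst2, rose in wild-type cells by 0.74 (edgeR adjusted p = 1.03e-05) and differed by 0.04 between the unchallenged genotypes (adjusted p = 0.875). Plvap, an endothelial gene 22503 bases from Bst2, was higher in unchallenged Mirc11-/- than in unchallenged wild-type cells, by 1.51 (adjusted p = 6.6e-05).

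The microRNAs of the deleted cluster were compared with the members' messages by sequence alone. The mature RefSeq sequences of the 3 main strands (GRCm38.p6, chromosome 8, plus strand) are printed with the seed, bases 2 to 8, in capitals, because the sites below are complements of these seeds.
miR-23a-3p: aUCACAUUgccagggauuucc
miR-27a-3p: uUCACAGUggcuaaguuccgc
miR-24-3p: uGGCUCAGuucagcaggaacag
The seeds of miR-23a-3p and miR-27a-3p begin with the same letters, and that of miR-24-3p is different. In the longest annotated 3′ untranslated region of each member, Ifitm1 held 1 site for miR-23a-3p and Rsad2 held 1 for miR-23a-3p and 1 for miR-27a-3p, each shown with its seed complement in capitals (GRCm38).
Ifitm1 at chr7:140969746-140969774, plus strand: catacatatgcaAATGTGAcactcacaaa
Rsad2 at chr12:26444389-26444417, minus strand: ggcaaaagacagAATGTGAactagccaaa
Rsad2 at chr12:26445118-26445146, minus strand: tgtgtggattttACTGTGAatcccacatt
The other 4 members held none. A share of 40.4% of 13543 tested genes with such a region held at least 1 site for one of the 3 microRNAs, against 2 of 6 members. The members' regions were 142 to 2663 bases long, with a median of 1156 bases over the tested genes. Whether any of these sites is used was not measured.

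Across the 12 libraries the genes whose log2 levels were most like each member were found among 12411 tested genes, by Pearson r. For Ifitm3 they were Mefv, the pyrin gene (r = 0.998), Ptafr (0.997) and Cdc45 (0.996). For Bst2 they were Tmem106a (0.997), Socs1 (0.997) and Irf7 (0.996), and for Ifitm6 they were Mpeg1 (0.997), Ccr1 (0.997) and C5ar1 (0.992), genes best known from myeloid cells. Ifitm1 was most like Ifi30 (0.995), Prnp (0.992) and Npr1 (0.991). Ifitm2 was most like Hsph1 (0.996), Prim2 (0.995) and Lig1 (0.994), a chaperone gene and a pair of DNA replication genes. Rsad2 was most like Rrm2 (0.993) and the neutrophil genes S100a8 (0.993) and Lcn2 (0.990). S100a8 averaged 254 ± 64.6 CPM in challenged Mirc11-/- cells, 459 ± 68.6 CPM in challenged wild-type cells, 86.3 ± 4.40 CPM in unchallenged Mirc11-/- cells and 10.8 ± 1.08 CPM in unchallenged wild-type cells. None of these 18 genes was among the 3 most like the same member by Spearman rho.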

How the data were processed

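Per the labels' protocols, Trizol was used to extract the RNA and an Illumina TruSeq RNA kit to make libraries. The submitters' processing notes name RSEM 1.3.0, Bowtie2 2.2.8, Trim Galore 0.4.1 and bcl2fastq, with GRCm38 as the genome. The values deposited by the authors are counts per gene and library, whole numbers without normalization. RSEM estimates counts and divides reads shared by near-identical genes, but no source used here says how values were rounded, which annotation release served or whether strand was used.

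The members, gene lists and tests were chosen with earlier results of these data known. All 12 columns of values were used, with 0 others. Genes were filtered with filterByExpr over the 4 groups, and 1 robust quasi-likelihood F test fit of edgeR 4.0.16 (R 4.3.3, TMM) gave 5 contrasts, adjusted by Benjamini-Hochberg over the 16694 tested genes. Standard errors follow from the log2 fold change and F. Group levels are mean CPM with SD, and a single count was worth 0.0423 CPM in the deepest library. P-values measure only the spread between these samples, which may be technical. Gene positions come from GENCODE vM21, which held 50338 of the 50643 IDs. Within groups, squared differences between libraries were 3.38 to 26.9 times counting noise, so none was a duplicate. Named genes were the 6 members, up to 3 genes per list by smallest p for challenge in wild-type cells and for the difference of the responses, the 3 most like each member (log2 CPM, prior count 2, mean of at least 1 CPM), neighbours within 50 kb and markers. A gene that this rule names is not reported here. Ifng, Ifnb1, Apol9a, Apol9b, Ch25h, March2 and March8 and the check genes Xist, Ddx3y and Gm26532 were chosen after their values were seen. The test was tried on simulated counts. Alternatives covered scaling, filtering, DESeq2, robustness, libraries left out and replicate numbers. Reads carry no molecular identifiers.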

Additional observations from a re-analysis of the deposited data

Results flagged for a closer look

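The challenge responses of the genotypes differed, as tested by the difference of the responses itself (Mirc11-/- minus wild-type, log2). For the members this is a description, since they were chosen on their levels: Ifitm1 -2.80, Ifitm2 -1.54, Ifitm3 -2.22, Ifitm6 -2.35, Bst2 -1.95 and Rsad2 -2.25, lower in 6 of 6 genes. Among genes outside the set, Ifitm10 was the 1 family member with a difference in the other direction, at 2.68. Isg20 differed by -2.08. Gbp2, Gbp5 and Slfn5 differed by -1.45, -1.52 and -1.09, and the restriction factors Zbp1, Cmpk2, Parp12 and Tdrd7 by -1.39, -1.16, -1.02 and -1.14. In signalling, Usp18, Stat2 and Irf8 differed by -1.83, -1.24 and -1.23, and among protein partners Vcp, Fam96b and Stt3a by -0.39, -0.71 and -0.41. Each of the genes outside the set passed edgeR's adjusted threshold.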

How the results depend on the processing

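Of 684 alternative values of the members' log2 fold changes, 683 kept their direction and moved by less than the spread between libraries. The other moved further, Ifitm1 with challenge in wild-type cells under upper-quartile scaling, to 3.13. Calls of members were not part of that count, and some changed, as given below. Upper-quartile scaling shifted the median of all genes by -0.12 in that comparison and total-count scaling by -0.11. Among counts of called genes, 18 of 684 values moved by over 1.5 times, all in small counts. For interferon signalling without challenge (1 gene) the count was 0 with either replicate block, 3 in a fit of those groups alone, 2 without the libraries labelled Mirc11-/- challenged replicate 3 and unchallenged wild-type replicate 4, chosen after seeing the data, and 0 to 2 with 1 library left out. For protein partners with challenge in Mirc11-/- cells (6 genes) it was 2 or 3 with a replicate block, 2 in the fit of those groups alone, 3 without both libraries and 2 to 8 with 1 library left out. Members called without challenge were 4 to 6 with 1 library left out, and 6 by DESeq2. Over all tested genes the counts in that comparison were 1393 to 2178 with 1 library left out, and 1982 by DESeq2. Replicate numbers were not taken to pair samples, since residuals of same-numbered libraries correlated at only -0.317 to 0.249 with the number at the start of the titles and -0.317 to 0.158 with that at the end. For the genes named from the lists by smallest p, 10 values lost their call (all Fam96b with challenge in Mirc11-/- cells). In the other direction, 1 gained a call (Isg20 in Mirc11-/- cells, 0.26 without challenged replicate 2). That count leaves out the genes chosen after their values were seen. Of those, Apol9a, Ch25h and March2 lost calls in 9, 8 and 6 of 12 fits with 1 library left out. On longest-transcript length, 10 of 24 levels per kilobase moved.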
